A study of Mus musculus with 48 samples.

Results

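The 9 genes described here encode the ligands and receptors of the vascular endothelial growth factor (VEGF) family: the ligands *Vegfa*, *Vegfb*, *Vegfc* and *Pgf*, the receptor tyrosine kinases *Flt1*, *Kdr* and *Flt4*, and the co-receptors *Nrp1* and *Nrp2*. They were chosen by gene symbol, and all 9 were found among the 24973 genes of the deposited table. The table holds 48 RNA-sequencing libraries of 4 cell types of the neurovascular unit: microglia (MG), astrocytes (AC), pericytes (PC) and endothelial cells (EC). Each cell type was sorted from the ipsilateral (ischemic) and the contralateral (control) hemisphere of adult male wild-type C57BL/6 mice, with 6 libraries per cell type and hemisphere. All mice underwent a filament occlusion of the right middle cerebral artery for 1 h followed by 23 h of reperfusion, so the cells were collected 24 h after the onset of ischemia. The contralateral groups come from the same operated mice, and no sham-operated group is part of the comparison. Each library holds cells of 3 to 4 pooled mice, and mice with a weak neurological deficit had been left out. Libraries with the same replicate number were taken to come from the same pool, although the labels do not state it. The gates were CD45-/VECAD+ for endothelial cells, NG2+/PDGFRβ+ without endothelial and astrocytic antigens for pericytes, ACSA2high for astrocytes, and CD45low/CD11b+ for microglia.

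In 12 ipsilateral libraries, those of microglia and pericytes, title and table column disagree on which of both cell types was sequenced, and the columns were followed. With this assignment, 16 of 16 cell type markers had no overlap between their own cell type and the libraries of the other three. Values are normalized counts, which the authors rounded to whole numbers. They sum to between 10549900 and 16942165 per library. In the 36 libraries whose low values showed a clear spacing, 1 read was worth 0.67 to 2.37 normalized counts, which puts the reads on genes at 4900000 to 17100000 with a median of 12200000, and a floor of 3 reads at 2.0 to 7.1 normalized counts (counting error only). RNA of other cells was present in the sorted libraries. Summed over 4 microglial markers, microglial RNA ranged from 532 to 28388 normalized counts in the libraries of the other 3 cell types of replicates 1 to 4 and from 192 to 801 in those of replicates 5 and 6. Summed over 5 oligodendrocyte markers, astrocyte libraries held 34808 to 383698 normalized counts, and pericyte libraries held 140102 to 472420 for 4 smooth muscle markers, cells that share antigens with pericytes.

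VEGF ligands are secreted proteins that act on endothelial receptors. VEGF-A binds FLT1 (VEGF receptor 1) and KDR (VEGF receptor 2, the main signaling receptor of blood vessels). Among the receptor tyrosine kinases, VEGF-B and placental growth factor (PGF) bind FLT1 only, and VEGF-C binds FLT4 (VEGF receptor 3) and KDR. FLT1 holds VEGF-A tightly and signals weakly, and a soluble form of it acts as a decoy. Neuropilins bind some VEGF isoforms as well as class 3 semaphorins. In the brain, VEGF-A is known both as a hypoxia-induced factor that opens the blood–brain barrier and as a driver of vessel growth.

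In the gene annotation of GRCm38, *Flt1* lies on chromosome 5 from 147561604 to 147726011 and *Kdr* on the same chromosome from 75932827 to 75978458, both on the minus strand. *Nrp2* lies on chromosome 1 from 62703285 to 62818695 on the plus strand. The bases before their start are shown because *Flt1* and *Kdr* were the receptors with the highest correlation over the 48 libraries (Pearson's r of 0.94). Their levels were not alike. *Nrp2* was the one member called changed after stroke. Sequences are from RefSeq (GRCm38.p6), read 5′ to 3′ on the strand of the gene, and without bases that GENCODE places in an exon. Capitals mark matches on either strand to CCGGAA (the core of many ETS factor motifs), GGGCGG (the core of the SP1 motif), ACGTG (the core of the hypoxia response element) or TATAAA (the TATA box). The windows are chr5:147726012-147726261 for *Flt1*, chr5:75978459-75978705 for *Kdr* and chr1:62703067-62703284 for *Nrp2*.
Flt1: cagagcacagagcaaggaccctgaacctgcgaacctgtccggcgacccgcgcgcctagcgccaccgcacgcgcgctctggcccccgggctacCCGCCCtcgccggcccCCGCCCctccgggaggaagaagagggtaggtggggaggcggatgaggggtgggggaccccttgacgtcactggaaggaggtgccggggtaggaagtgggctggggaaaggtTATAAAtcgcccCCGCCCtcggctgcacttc
Kdr: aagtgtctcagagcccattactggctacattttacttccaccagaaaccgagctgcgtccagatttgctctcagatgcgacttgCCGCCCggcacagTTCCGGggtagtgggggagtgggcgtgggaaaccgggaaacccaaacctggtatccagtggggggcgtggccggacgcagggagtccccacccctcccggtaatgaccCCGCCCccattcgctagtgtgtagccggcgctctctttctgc
Nrp2: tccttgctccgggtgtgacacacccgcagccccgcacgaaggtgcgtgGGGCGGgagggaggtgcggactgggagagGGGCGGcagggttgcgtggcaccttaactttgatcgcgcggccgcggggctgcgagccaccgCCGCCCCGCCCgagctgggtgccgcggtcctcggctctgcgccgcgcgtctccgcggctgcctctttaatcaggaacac
GGGCGG matched 3 times in the 250 bases of *Flt1*, 2 times in the 247 bases of *Kdr* and 4 times in the 218 bases of *Nrp2*, where 2 matches share a base. It is found in 32.9% of 27025 RefSeq promoter windows of 250 bases, in 32.5% of 247 bases and in 28.2% of 218 bases. TATAAA matched in *Flt1* only, beginning 31 bases before the RefSeq start, and is present in 3504 of the 27025 windows of 250 bases. CCGGAA matched once in *Kdr* and is present in 12.0% of windows of 247 bases. ACGTG matched in none of the 3 windows and is present in 16.6% of windows of 250 bases. Other forms of the hypoxia response element core were not searched. These are letters found in a window, and no binding was measured.

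The first question was which cells of the neurovascular unit carry the RNA of each ligand and receptor. In the contralateral hemisphere, the 3 receptor tyrosine kinases were highest in endothelial cells, *Vegfc* was highest in endothelial cells, *Pgf* in pericytes, and *Vegfa* and *Vegfb* in astrocytes. *Nrp1* was at 305 normalized counts or more in each contralateral library of the 4 cell types, with the highest level in endothelial cells. *Nrp2* was highest in microglia. Of the 54 contrasts between pairs of cell types over the 9 genes, 37 were called different (limma on all 48 libraries, Benjamini-Hochberg adjusted p of at most 0.05, at least 1.5-fold, and more than 10 normalized counts in all 6 libraries of a group). Cell types differ at many genes. The share of all 15003 genes called was 30.6% between endothelial cells and pericytes, 44.1% between endothelial cells and astrocytes, 37.8% between endothelial cells and microglia, 40.8% between pericytes and astrocytes, 42.9% between pericytes and microglia and 46.3% between astrocytes and microglia.

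**Figure D1:**
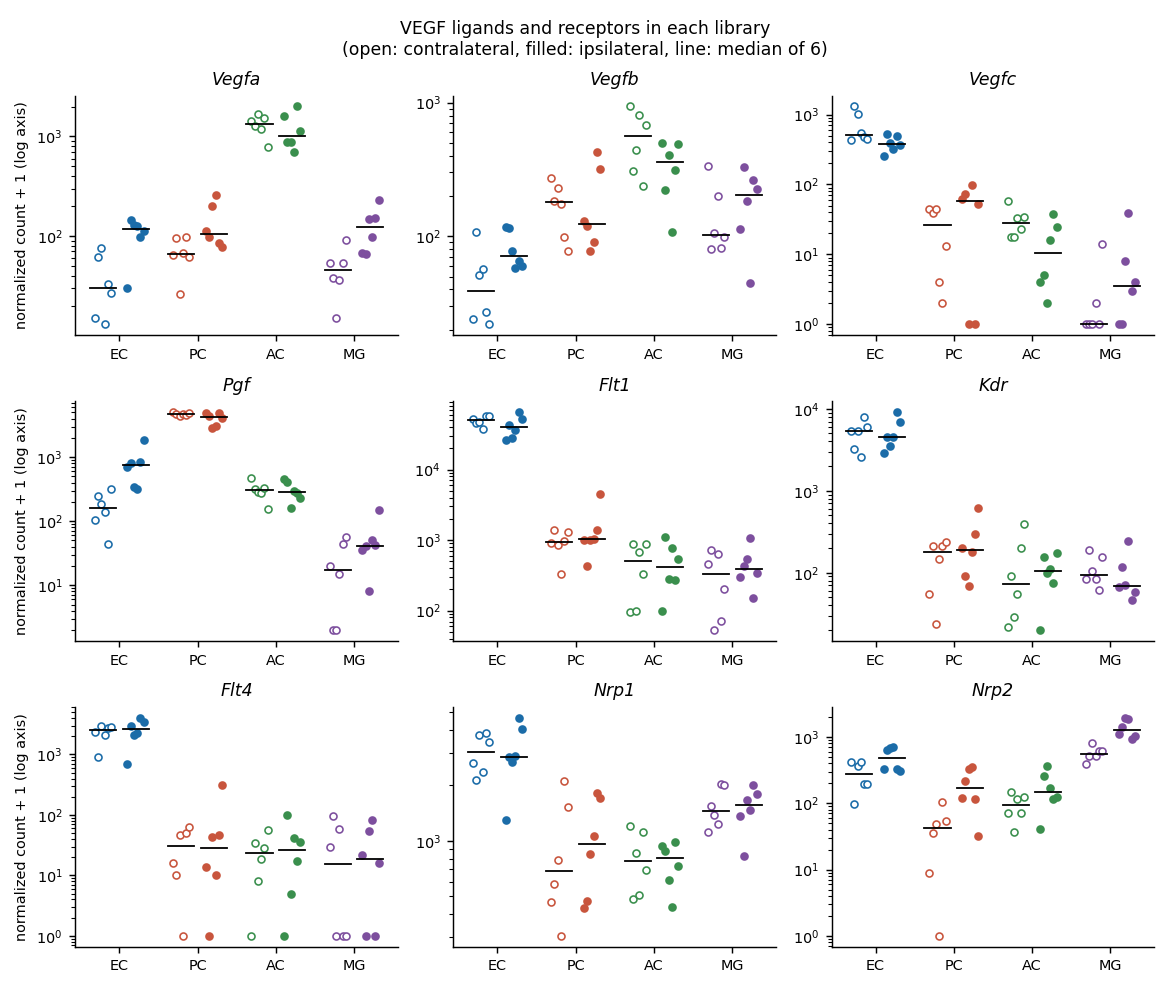
Normalized count + 1 (log axis) of each VEGF gene in the 48 libraries, by cell type (EC endothelial cells, PC pericytes, AC astrocytes, MG microglia) and hemisphere, with a line at the median of 6 libraries. *Flt1*, *Kdr* and *Flt4* stand highest in EC, *Pgf* in PC, *Vegfa* in AC and *Nrp2* in MG, in both hemispheres.

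Among the receptors, *Flt1* (ENSMUSG00000029648) had by far the highest level. In contralateral endothelial cells its lowest, median and highest values were 37272, 49931 and 57780 normalized counts, and in contralateral pericytes 324, 948 and 1371. The difference was 5.81 in log2 (standard error 0.60, limma adjusted p = 7.99e-11), and no pericyte library came near an endothelial one. Contralateral astrocytes held 494 ± 369 (SD, n = 6) and microglia 355 ± 290. The difference between pericytes and astrocytes was not called (log2 difference 1.35, 95% confidence interval 0.14 to 2.55, limma adjusted p = 0.0612). With the replicate block, which compares libraries of the same pool, it was called (limma adjusted p = 0.0432). Astrocytes and microglia did not differ beyond their spread (log2 difference 0.56, interval -0.65 to 1.77, adjusted p = 0.466 by limma).

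*Kdr* (ENSMUSG00000062960) ranged from 2573 through a median of 5372 to 7855 normalized counts in contralateral endothelial cells. The next cell type was pericytes, with 146 ± 88.6, followed by microglia with 112 ± 48.7 and astrocytes with 130 ± 143 when ordered on the log scale of the test. Endothelial cells lay 5.40 above pericytes in log2 (standard error 0.59, limma adjusted p = 3.03e-10). The other 3 cell types did not differ from one another (limma adjusted p of 0.906 for pericytes against microglia and 0.611 for microglia against astrocytes, with intervals of -1.08 to 1.29 and -0.79 to 1.58). *Flt4* (ENSMUSG00000020357), known best from lymphatic endothelium, was at 916, 2552 and 2959 normalized counts (lowest, median and highest) in contralateral endothelial cells. It lay above pericytes with an interval of 4.43 to 9.58 for the log2 difference (standard error 1.28, limma adjusted p = 1.69e-05). In the other cell types *Flt4* was between 0 and 94 contralaterally and was listed at 0 in 1 pericyte, 1 astrocyte and 3 microglia libraries. The 3 markers of lymphatic endothelium fixed for comparison (*Prox1*, *Lyve1*, *Pdpn*) summed to 17 to 94 normalized counts in the same endothelial libraries.

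Levels of different genes were compared per kilobase of exon. In contralateral endothelial cells *Flt1* reached 3669 ± 573 normalized counts per kilobase (SD, n = 6), *Kdr* 561 ± 212, *Nrp1* 311 ± 76.0, *Flt4* 282 ± 92.0 and *Nrp2* 23.5 ± 11.3. The ratio of *Flt1* to *Kdr* per kilobase was 4.92 to 9.69 in the 6 contralateral endothelial libraries and 4.79 to 6.25 in the ipsilateral ones, and these ranges overlap. The soluble and the membrane form of *Flt1* are counted together, since values are per gene.

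*Nrp1* (ENSMUSG00000025810) encodes the neuropilin that joins KDR in endothelium. It was at 2137, 3024 and 3850 normalized counts (lowest, median and highest) in contralateral endothelial cells and at 1113, 1454 and 2040 in microglia. Endothelial cells did not overlap with microglia, with a log2 difference of 0.96 (standard error 0.36, limma adjusted p = 0.0260), and microglia lay 0.97 above pericytes (standard error 0.36, adjusted p = 0.0216 by limma). Pericytes (961 ± 707) and astrocytes (809 ± 301) did not differ (log2 difference 0.02, interval -0.70 to 0.74, limma adjusted p = 0.978). In pericytes, *Nrp1* ranged from 305 to 783 in replicates 1 to 4, and the values of replicates 5 and 6 were 2117 and 1517.

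*Nrp2* (ENSMUSG00000025969), the neuropilin with a known role beside FLT4, was at 386, 560 and 808 normalized counts in contralateral microglia and at 95, 279 and 414 in endothelial cells. Microglia and endothelial cells did not differ beyond their spread (log2 difference 1.18, interval -0.12 to 2.48, limma adjusted p = 0.145). Endothelial cells lay 1.53 above astrocytes (standard error 0.65, limma adjusted p = 0.0448), which held 93.0 ± 40.9. Astrocytes in turn lay 2.02 above pericytes (standard error 0.65, limma adjusted p = 0.00884), which held 41.0 ± 37.0.

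Among the ligands, *Vegfa* (ENSMUSG00000023951, chromosome 17 from 46016993 to 46032369) encodes the main angiogenic factor. It was at 789, 1342 and 1691 normalized counts (lowest, median and highest) in contralateral astrocytes. The other cell types held far less, with 68.0 ± 26.5 in pericytes, 46.8 ± 25.5 in microglia and 36.5 ± 25.5 in endothelial cells. Astrocytes lay 4.33 above pericytes in log2 (standard error 0.44, limma adjusted p = 3.61e-11) and held 89.7% of the summed means of the 4 cell types. No difference among the other 3 was called (limma adjusted p between 0.0561 and 0.445). Pericytes lay 1.06 above endothelial cells in log2, with an interval of 0.17 to 1.95 (limma adjusted p = 0.0561). The summed oligodendrocyte markers in the astrocyte libraries, given above, were not tested for a part in this level.

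*Vegfb* (ENSMUSG00000024962, chromosome 19 from 6982473 to 6987651), known more for effects on metabolism and cell survival than on vessel growth, was spread more evenly. Contralateral astrocytes held 567 ± 281 normalized counts or 60.6% of the summed means, pericytes 173 ± 75.8, microglia 149 ± 101 and endothelial cells 47.0 ± 32.4. Astrocytes lay 1.68 above pericytes (standard error 0.49, limma adjusted p = 0.00384), although single libraries overlapped. Pericytes and microglia did not differ (interval -0.68 to 1.28, limma adjusted p = 0.647), and microglia lay 1.66 above endothelial cells (standard error 0.49, adjusted p = 0.00440 by limma).

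*Pgf* (ENSMUSG00000004791, chromosome 12 from 85166635 to 85177790), the FLT1 ligand first found in placenta, had a narrow spread in contralateral pericytes, though not in the other cell types. Its 6 values in contralateral pericytes lay between 4444 and 5005 normalized counts, with a median of 4674 and a mean per kilobase of 1615 ± 72.5. Pericytes held 90.4% of the summed means and lay 4.01 above astrocytes in log2 (standard error 0.59, limma adjusted p = 2.28e-07). Astrocytes (305 ± 101) and endothelial cells (173 ± 100) did not differ (log2 difference 1.00, interval -0.18 to 2.19, limma adjusted p = 0.157), and endothelial cells lay 3.59 above microglia (standard error 0.59, adjusted p = 1.94e-06 by limma). Set against the level in pericytes, *Pgf* in contralateral astrocytes averaged 6.51%, and the 4 pericyte markers summed to 1538 to 6319 normalized counts in the same libraries, against 44294 to 92716 in pericytes.

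*Vegfc* (ENSMUSG00000031520, chromosome 8 from 54077606 to 54187096), the lymphangiogenic ligand of FLT4, was at 428, 506 and 1308 normalized counts in contralateral endothelial cells. The 2 highest values were 1308 in replicate 2 and 1008 in replicate 3. Endothelial cells held 92.7% of the summed means and lay 4.50 above astrocytes (standard error 0.99, limma adjusted p = 0.000155). In contralateral microglia *Vegfc* was listed at 0 in 4 of 6 libraries, and its highest value was 13. The remaining ligand of the family, *Vegfd*, ranged from 24 to 148 in contralateral pericytes and from 0 to 39 in the other contralateral libraries.

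Whether receptor RNA in pericytes, astrocytes and microglia exceeds the endothelial RNA in these libraries was read from the 4 endothelial markers *Cldn5*, *Pecam1*, *Ptprb* and *Cdh5*. In contralateral pericytes, *Flt1* averaged 1.93% of its endothelial level, *Kdr* 2.88% and *Flt4* 1.30%, and the 4 markers averaged 1.85% to 3.08%. In contralateral astrocytes these values were 0.997% for *Flt1*, 2.57% for *Kdr* and 1.01% for *Flt4*, beside 0.797% to 1.07% for the markers. In contralateral microglia they were 0.717%, 2.20% and 1.29%, beside 0.762% to 1.76%. Contralaterally, *Flt1* and *Flt4* thus stood at or below the highest marker in all 3 cell types, and *Kdr* stood above the markers in astrocytes and microglia. In contralateral astrocytes, *Kdr* averaged 0.957% in replicates 1 to 4 and 5.80% in replicates 5 and 6. Ipsilaterally, *Kdr* averaged 1.99% in astrocytes, beside 0.946% to 1.52% for the markers. In ipsilateral microglia it averaged 1.90%, within the 0.753% to 2.04% of the markers.

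In ipsilateral pericytes, replicate 6 held 4481 normalized counts of *Flt1*, 623 of *Kdr* and 310 of *Flt4*, or 10.7%, 11.9% and 12.0% of the endothelial mean. The endothelial markers of the same library summed to 6219, against 1263 to 2159 in replicates 1 to 4 and 2032 in replicate 5. *Nrp1* stood far above the markers and averaged 31.8% of its endothelial level in contralateral pericytes, 26.8% in astrocytes and 51.3% in microglia.

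**Figure D2:**
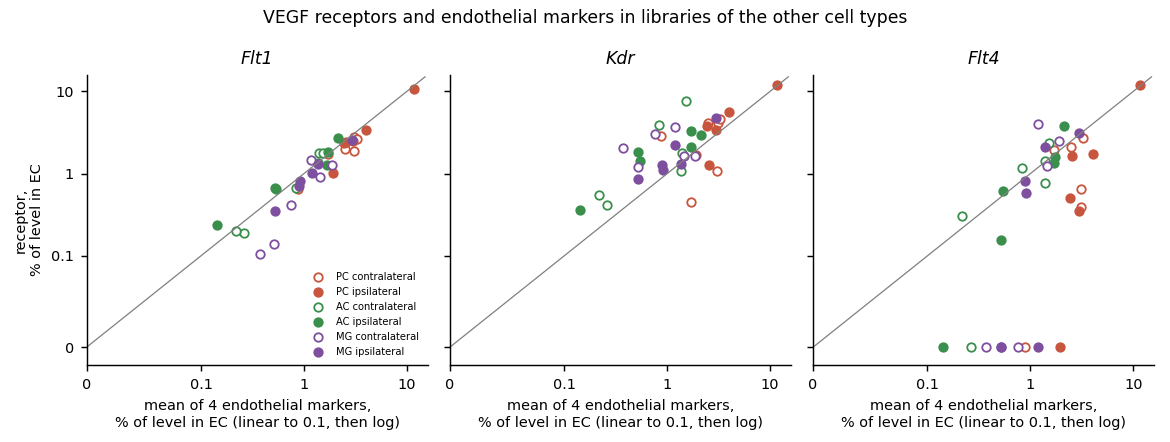
Level of *Flt1*, *Kdr* and *Flt4* in each library of PC, AC and MG as percent of the mean in EC of the same hemisphere, against the mean percent of 4 endothelial markers in the same library (both axes linear up to 0.1 and logarithmic above; open points contralateral, filled points ipsilateral, grey line equal percent). Most points of *Flt1* lie close to the line, and the farthest point to the right is ipsilateral PC of replicate 6, at 10.7% for *Flt1*.

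The genes with levels most like those of the members were read as a description from Pearson's r over the 48 libraries, which share cell types and pools, among 15003 genes. *Flt1* was most like *Ly6c1*, *Cldn5* and *Acer2* (r of 0.98 each), and *Kdr* was most like *Flt1* (0.94), *Acer2* (0.94) and *Sgms1* (0.94). *Flt4* was most like *Flt1* (0.93), *Nos3* (0.93) and *Adgrl4* (0.91), and *Nrp1* was most like *Plk2* (0.84), *Gm9917* (0.84) and *Myh9* (0.82). *Pgf* was most like *Mcam* (0.93), *Adamts5* (0.92) and *Bcr* (0.91), and *Vegfa* was most like *Slc1a4* (0.90), *Otoa* (0.89) and *Spag5* (0.88). *Vegfc* was most like *Paqr5* (0.86), *Tshz2* (0.86) and *Fas* (0.85), *Vegfb* like *Oaf* (0.81), *Ptov1* (0.78) and *Trim8* (0.78), and *Nrp2* like *Cd274* (0.90), *Trim30a* (0.88) and *Tnfaip2* (0.87).

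The second question was which of these genes differ between the ischemic and the control hemisphere within a cell type. Of 36 combinations of gene and cell type, 35 had a mean of at least 10 normalized counts and were tested, the exception being *Vegfc* in microglia. One was called changed, a rise of *Nrp2* in microglia (limma, same criteria as above). No member was called in endothelial cells, pericytes or astrocytes. Over all genes, 10.6% were called in microglia, 1.02% in pericytes, 0.491% in endothelial cells and 0.341% in astrocytes, so that 1 of 8 tested members in microglia is near the share of all genes. With DESeq2 at the same fold and adjusted p thresholds, the paper reports more regulated genes in each cell type than were called here. A missing call here thus does not mean that the paper's test gave none. The median log2 change of the members tested was 0.65 in microglia, 0.31 in pericytes, 0.06 in endothelial cells and -0.03 in astrocytes, and that of all genes was -0.18, -0.04, -0.03 and -0.06 in the same order. In these sorted libraries, a changed mix of cells within a library and changed RNA per cell cannot be told apart.

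**Figure D3:**
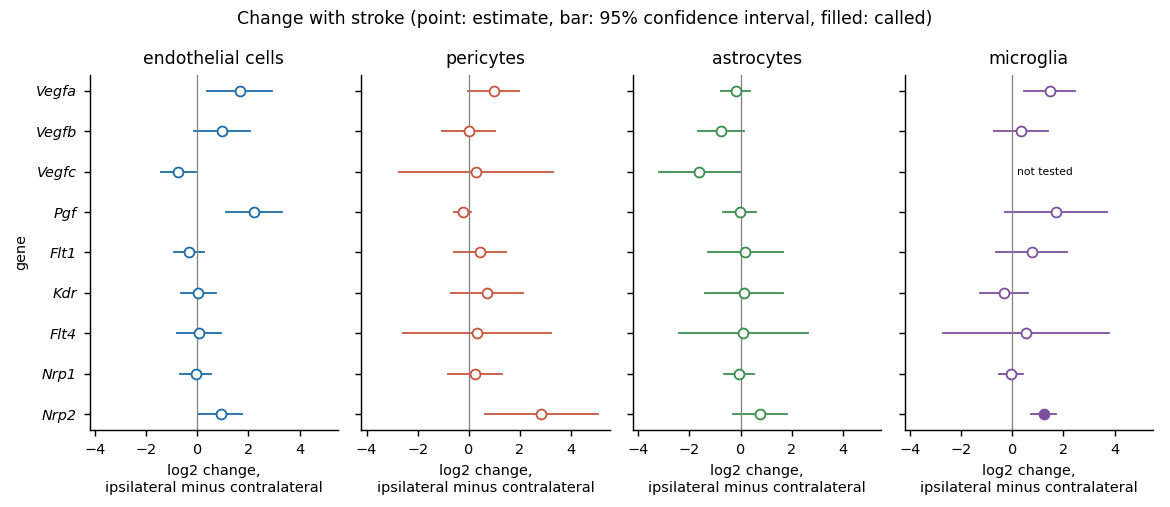
Log2 change of each VEGF gene, ipsilateral minus contralateral, in 4 cell types (point, limma estimate from 6 libraries per hemisphere; bar, 95% confidence interval; filled point, called changed). The filled point is *Nrp2* in microglia at 1.23. Without a call, the bars of *Vegfa*, *Pgf* and *Nrp2* in endothelial cells, *Nrp2* in pericytes and *Vegfa* in microglia also lie above 0, and those of *Vegfc* in endothelial cells and astrocytes lie below 0.

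*Nrp2* in microglia was at 386, 560 and 808 normalized counts contralaterally and at 928, 1251 and 1914 ipsilaterally (lowest, median and highest of 6). The hemispheres did not overlap, and the ipsilateral library was the higher one in 6 of 6 pools. The rise was 1.23 in log2 (standard error 0.23, interval 0.75 to 1.72, limma adjusted p = 0.00360), or 2.35-fold. After rescaling within microglia it was 1.29 (limma adjusted p = 0.00299), and the median of all microglial genes was then -0.12. The mean rise was 1.51 in replicates 1 to 4 and 0.69 in replicates 5 and 6. In a joint fit of all 48 libraries with 1 shared spread, the call was lost (limma adjusted p = 0.283). With the cell types taken from the titles the value turned to -1.91. That setting compares ipsilateral libraries of the pericyte columns with contralateral microglia.

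Other myeloid RNA moved in the same microglial libraries. Markers of neutrophils summed to 74 to 976 normalized counts contralaterally and to 1385 to 17795 ipsilaterally, with 3 of 4 tested markers called higher. Those of monocytes and macrophages summed to 292 to 1574 and 1047 to 2735, with none of 5 called. The microglial markers themselves summed to 180699 to 227678 and 91419 to 163197, with 2 of 4 called lower. Their part in the *Nrp2* result was not tested.

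In the other 3 cell types *Nrp2* was not called. In pericytes it was at 0, 41.0 and 103 contralaterally and at 31, 167 and 350 ipsilaterally (lowest, median and highest), a log2 difference of 2.83 (standard error 1.03, limma adjusted p = 0.204). The mean difference between hemispheres was 4.39 in replicates 1 to 4 and -0.30 in replicates 5 and 6. Summed microglial markers in the same ipsilateral pericyte libraries were 6025 to 28388 in replicates 1 to 4 and 267 to 277 in replicates 5 and 6, and their part was not tested. In endothelial cells the log2 difference of *Nrp2* was 0.91 (standard error 0.40, limma adjusted p = 0.375) and in astrocytes 0.76 (standard error 0.50, adjusted p = 0.694 by limma).

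**Figure D4:**
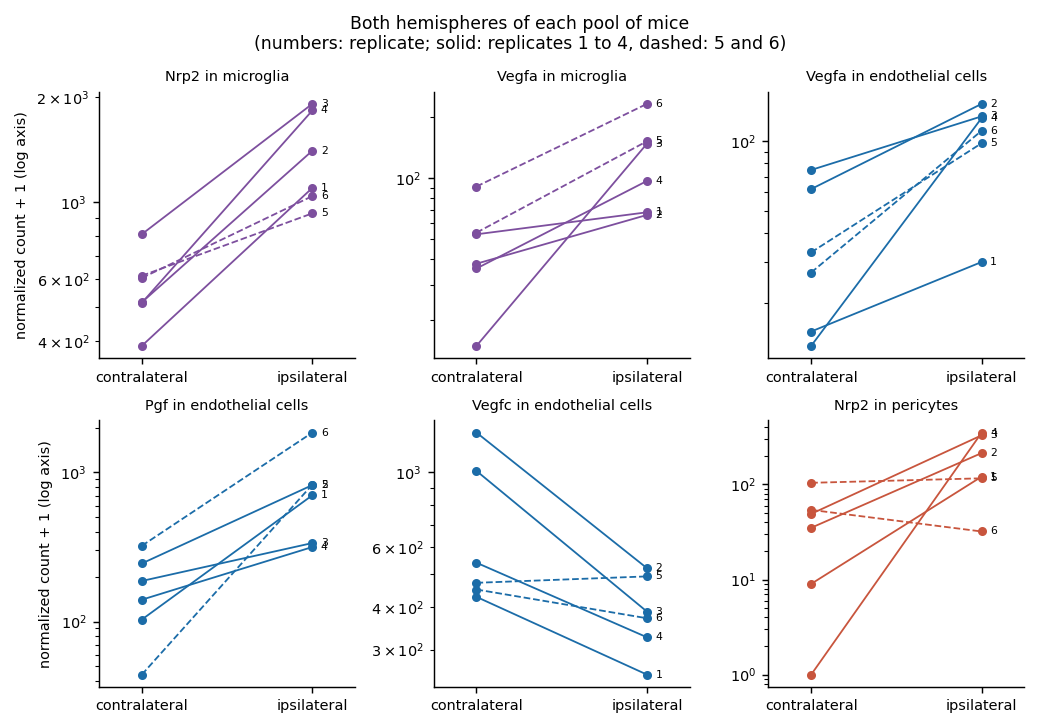
Normalized count + 1 (log axis) in the contralateral and the ipsilateral library of each pool for 6 combinations of gene and cell type; lines join libraries of the same pool, solid for replicates 1 to 4 and dashed for replicates 5 and 6. All 6 lines go up for *Nrp2* and *Vegfa* in microglia and for *Vegfa* and *Pgf* in endothelial cells, whereas *Nrp2* in pericytes goes up in 5 of 6 and *Vegfc* in endothelial cells goes down in 5 of 6.

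Among the ligands, *Vegfa* was higher in the ipsilateral library of endothelial cells in 6 of 6 pools and in that of microglia in 6 of 6, without passing the test. In endothelial cells the lowest, median and highest values were 12, 29.0 and 74 contralaterally and 29, 118 and 144 ipsilaterally. The log2 difference was 1.65 (standard error 0.60, interval 0.37 to 2.92, limma adjusted p = 0.272). In microglia the values were 14, 44.5 and 90 contralaterally and 65, 122 and 231 ipsilaterally, a log2 difference of 1.46 (standard error 0.47, interval 0.45 to 2.46, limma adjusted p = 0.0583). This last value passed the threshold without replicate 2 (limma adjusted p = 0.0420), with a pseudocount of 10 (0.0472) and in the joint fit (0.0370), where *Vegfa* in endothelial cells passed as well (0.0360).

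In pericytes the log2 difference of *Vegfa* was 0.97 (standard error 0.46, limma adjusted p = 0.333). In astrocytes, the cells with the highest level, *Vegfa* was at 1314 ± 315 contralaterally and 1199 ± 507 ipsilaterally, a log2 difference of -0.19 (standard error 0.27, interval -0.76 to 0.37, limma adjusted p = 0.877). Astrocytes held 89.7% of the summed means of the 4 cell types contralaterally and 76.5% ipsilaterally. In the microglial libraries the 4 astrocyte markers summed to 2851 to 3616 normalized counts contralaterally and 958 to 1432 ipsilaterally. As percent of the astrocytic level, *Vegfa* averaged 3.56% and 10.5% there. *Slc1a3* averaged 4.68% and 1.87%, *Gfap* 1.41% and 0.721%, *Aldh1l1* 0.844% and 1.14%, and *Aqp4* 0.734% and 0.788%. Of these 4 markers, 1 was called lower. In endothelial libraries these markers averaged 0.442% to 1.02% of their astrocytic level contralaterally and 0.761% to 1.18% ipsilaterally, beside 2.78% and 8.79% for *Vegfa*.

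*Pgf* in endothelial cells had the lowest unadjusted p among members outside microglia. It was at 43, 163 and 321 normalized counts contralaterally and at 315, 762 and 1850 ipsilaterally, and was higher ipsilaterally in 6 of 6 pools. The groups overlapped only between the highest contralateral value (321, replicate 6) and the lowest ipsilateral one (315, replicate 4). The log2 difference was 2.22 (standard error 0.51, interval 1.12 to 3.31, unadjusted p = 0.000657), with an adjusted p of 0.0803 over all genes (limma). It passed the threshold in the joint fit (limma adjusted p = 0.0350). The mean difference was 1.63 in replicates 1 to 4 and 3.38 in replicates 5 and 6.

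No pericyte marker was called in endothelial cells. The 4 pericyte markers in endothelial libraries summed to 103 to 1065 normalized counts contralaterally and to 68 to 947 ipsilaterally. As percent of the pericyte level, *Pgf* averaged 3.68% and 20.0% in contralateral and ipsilateral endothelial cells, beside 0.380% to 0.901% and 0.350% to 0.996% for the markers. In pericytes, *Pgf* was at 4689 ± 211 contralaterally and 4036 ± 865 ipsilaterally (log2 difference -0.24, interval -0.57 to 0.08, limma adjusted p = 0.463). In astrocytes the log2 difference was -0.03 (interval -0.67 to 0.61, limma adjusted p = 0.988) and in microglia, where *Pgf* was at 22.3 ± 22.6 and 53.5 ± 49.0, it was 1.71 (standard error 0.94, adjusted p = 0.247 by limma).

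*Vegfc* in endothelial cells was at 428, 506 and 1308 contralaterally and at 252, 379 and 520 ipsilaterally, lower in 5 of 6 pools, with a log2 difference of -0.74 (standard error 0.32, interval -1.41 to -0.06, limma adjusted p = 0.369). The mean difference was -1.05 in replicates 1 to 4 and -0.11 in replicates 5 and 6. In astrocytes it was at 29.7 ± 15.1 and 14.0 ± 14.3, a log2 difference of -1.61 (standard error 0.74, limma adjusted p = 0.530). *Vegfb* was higher in the ipsilateral endothelial library in 6 of 6 pools, by as little as 0.03 on the log2 scale in one pool, and at 47.0 ± 32.4 and 81.2 ± 27.4 its log2 difference was 0.96 (standard error 0.51, limma adjusted p = 0.493). In pericytes, the sign of the *Vegfb* difference split by replicate, with a mean of -1.06 in replicates 1 to 4 and 2.09 in replicates 5 and 6.

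The receptors of endothelial cells were not called, and their intervals bound the size of a change. *Flt1* was at 37272, 49931 and 57780 contralaterally and at 26225, 39703 and 64857 ipsilaterally, lower in 5 of 6 pools, with a log2 difference of -0.31 (interval -0.90 to 0.28, limma adjusted p = 0.721). *Kdr* was at 5067 ± 1913 and 5236 ± 2315 (log2 difference 0.03, interval -0.65 to 0.72, adjusted p = 0.989 by limma). *Flt4* was at 2320 ± 757 and 2583 ± 1157 (0.06, interval -0.79 to 0.92, limma adjusted p = 0.979), and its ipsilateral library of replicate 1 held 690, against 2123 to 3982 in the other 5. *Nrp1* was at 3021 ± 737 and 3054 ± 1161 (-0.05, interval -0.66 to 0.55, limma adjusted p = 0.973).

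In microglia, *Nrp1* was at 1550 ± 394 contralaterally and 1518 ± 406 ipsilaterally (log2 difference -0.04, interval -0.53 to 0.44, limma adjusted p = 0.916), beside the called rise of *Nrp2* in the same libraries. *Nrp1* was likewise not called in pericytes (0.24, interval -0.81 to 1.29) or astrocytes (-0.05, interval -0.63 to 0.53). *Flt1*, *Kdr* and *Flt4* outside endothelial cells had log2 differences between -0.31 and 0.76, with adjusted p (limma) of at least 0.466.

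Whether the change differed between cell types was tested with the difference of the 2 changes for 6 pairs of cell types and 9 genes. None of these 54 tests was called, and the smallest adjusted p (limma on all 48 libraries) was 0.311. The difference for *Pgf* between endothelial cells and pericytes was 2.46 (standard error 0.83, interval 0.78 to 4.14, adjusted p = 0.358 by limma). That of *Vegfa* was 1.84 between endothelial cells and astrocytes (standard error 0.62, limma adjusted p = 0.466) and -1.65 between astrocytes and microglia (standard error 0.62, limma adjusted p = 0.370). Few genes of the whole table were called by this test, namely 0.0267% between endothelial cells and pericytes, 0.0600% between endothelial cells and astrocytes, 0.273% between endothelial cells and microglia, 0.00667% between pericytes and astrocytes, 0.700% between pericytes and microglia and 0.273% between astrocytes and microglia. A change of a VEGF gene in a single cell type was therefore not shown to be particular to it.

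The other genes of the pathway were taken from lists of partners, semaphorins, ligand-processing enzymes, oxygen sensors, hypoxia targets, signaling proteins and genes known to follow VEGF receptor signaling, 121 of which are in the table. In endothelial cells 6 of 110 tested were called, all higher, or 5.45% beside 0.491% of all genes. In pericytes 3 of 113 were called, all higher, or 2.65% beside 1.02%, and in astrocytes 5 of 113, all higher, or 4.42% beside 0.341%. In microglia 11 were higher and 14 lower of 106, or 23.6% beside 10.6%. With only replicates 1 to 4, the called shares were 16.8% in microglia, 3.57% in astrocytes, 0.909% in endothelial cells and 0% in pericytes, beside 5.95%, 0.314%, 0.0819% and 0.228% of all genes. With the replicate block they were 11.5% in astrocytes, 7.27% in endothelial cells and 5.31% in pericytes, beside 1.59%, 0.551% and 1.66% of all genes, and 22.6% in microglia, where 1468 of 13300 genes were called. The lists were chosen with results of these data known, so these shares are a description.

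Genes that follow VEGF receptor signaling in endothelium gave 4 of the 6 endothelial calls, among 20 tested (20.0%, beside 0.491% of all genes). With only replicates 1 to 4, *Angpt2* alone was called among the 20 tested. The paper names *Angpt2* and *Adamts9* among its top regulated endothelial genes, and the list was chosen with such results known. This share is thus a description, and VEGF receptor signaling itself was not tested. *Angpt2*, the TIE2 ligand that loosens vessels, rose by 2.30 on the log2 scale, and *Adamts9*, a matrix protease, rose by 2.38. *Apln*, the ligand of the apelin receptor on sprouting vessels, rose from 262 ± 212 to 2073 ± 1165 normalized counts, by 3.22 (standard error 0.64, limma adjusted p = 0.0398), and *Fosl1*, a subunit of the AP-1 transcription factor, from 196 ± 94.3 to 736 ± 199, by 2.01 (standard error 0.34, adjusted p = 0.0187 by limma). Each was higher ipsilaterally in 6 of 6 pools. The median log2 change of the 20 genes was 0.28, against -0.03 for all genes.

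The same list gave 1 call of 18 in pericytes (5.56%, beside 1.02% of all genes), *Angpt2* (1.01, standard error 0.19, limma adjusted p = 0.0246). In astrocytes it gave 2 of 18, *Fosl1* (3.88, standard error 0.77, limma adjusted p = 0.0466) and *Plvap* (2.60, standard error 0.45, adjusted p = 0.0235 by limma), which encodes a protein of endothelial fenestrae and was at 12.8 ± 7.63 and 76.3 ± 22.6. The called share in astrocytes was 11.1%, beside 0.341% of all genes. With the replicate block 4 of 18 were called higher in astrocytes, *Angpt2* and *Dusp5* in addition, or 22.2% beside 1.59%. In microglia 3 of 17 were higher and 3 lower, or 35.3% beside 10.6% of all genes. The replicate block added *Ets1* as lower. Among the genes called in microglia, *Angpt2* went from 15.8 ± 12.2 to 137 ± 54.4 and *Rcan1*, an inhibitor of calcineurin, from 6054 ± 1475 to 10010 ± 1987. The immediate early gene *Egr1* went from 43089 ± 18150 to 17714 ± 6832 and *Cd34*, a surface sialomucin, from 5205 ± 668 to 2824 ± 868. *Angpt2* stood at 975 ± 484 and 4593 ± 1723 in endothelial cells, and at 2434 ± 295 and 5085 ± 1550 in pericytes. Endothelial markers in microglia averaged 0.762% to 1.76% of their endothelial level contralaterally and 0.753% to 2.04% ipsilaterally. Pericyte markers averaged 0.307% to 1.02% and 0.729% to 1.37% of their pericyte level. The part of such RNA in the microglial *Angpt2* values was not tested.

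Among 12 co-receptors and partners, *Cd44*, a hyaluronan receptor that can bind VEGF isoforms, rose in pericytes (3.01, standard error 0.65, limma adjusted p = 0.0447), astrocytes (2.85, standard error 0.53, adjusted p = 0.0393 by limma) and microglia (4.02, standard error 0.37, limma adjusted p = 2.08e-05). In endothelial cells none of the 12 was called, whereas the replicate block called *Cd44* and the adhesion molecule *Mcam* higher there. The paper, using DESeq2, reports *Cd44* as upregulated in endothelial cells too. In microglia the integrin subunit *Itgb3* fell by 1.18 and the semaphorin receptor subunit *Plxna4* by 1.32 (limma adjusted p = 0.0171 and 0.0457). *Plxna4* was not called with the replicate block (limma adjusted p = 0.0611). No class 3 semaphorin was called in any cell type (limma), of 7 tested in pericytes, 6 in astrocytes, 4 in endothelial cells and 3 in microglia. With the replicate block *Sema3c* was called lower in endothelial cells and *Sema3b* in pericytes.

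Of the enzymes that process or release ligands, *Mmp14*, a membrane-bound matrix protease, was at 115 ± 57.8 in contralateral and 501 ± 253 in ipsilateral endothelial cells, a rise (2.10, standard error 0.36, limma adjusted p = 0.0187). *Adamts1*, which cleaves matrix proteoglycans and can bind VEGF-A, rose in astrocytes from 1114 ± 334 to 3346 ± 1171 (1.56, standard error 0.26, adjusted p = 0.0178 by limma). The other tested members of the list, 8 in pericytes, 8 in astrocytes, 7 in endothelial cells and 7 in microglia, were not called, except that the replicate block called *Ctgf* higher in astrocytes.

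Of 9 oxygen sensors, all tested in each cell type, *Hif3a* was called in microglia. There it went from 127 ± 27.3 to 12.5 ± 13.9 (log2 change -4.25, standard error 0.84, limma adjusted p = 0.00560). The share called in microglia was 11.1% of the oxygen sensors and 38.5% of the other hypoxia targets, beside 10.6% of all genes. Of the other hypoxia targets, the glycolytic genes *Pgk1*, *Ldha*, *Eno1* and *Aldoa* rose in microglia by 1.66, 1.26, 0.95 and 1.16, with adjusted p (limma) of 8.3e-05, 8.76e-05, 0.000245 and 0.000787, and *Pdk1* was called lower. *Pgk1* rose in endothelial cells from 509 ± 63.3 to 1029 ± 230 (0.99, standard error 0.20, limma adjusted p = 0.0398), a call that was lost with the replicate block (limma adjusted p = 0.0789). None of the 12 tested hypoxia targets was called in pericytes or of the 13 in astrocytes by limma, and with the replicate block *Ldha* was called higher in pericytes, *Adm* and *Ero1l* in astrocytes and *Ero1l* in microglia.

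Below the receptors, *Sphk1*, which makes sphingosine 1-phosphate, rose in pericytes (2.20, standard error 0.32, limma adjusted p = 0.00873), astrocytes (5.75, standard error 1.01, adjusted p = 0.0269 by limma) and microglia (3.87, standard error 0.79, limma adjusted p = 0.00656). In endothelial cells none of the 44 tested signaling genes was called by limma, with or without the replicate block. With the block, *Ptgs2* was also called higher in pericytes, and *Hspb1*, *Ptgs2* and *Rac2* in astrocytes. In microglia 3 of 45 were higher and 7 lower, or 22.2% beside 10.6% of all genes. Of these, *Plcg1* and *Rac3* were not called with the block. The prostaglandin synthase *Ptgs2* rose there from 791 ± 323 to 2939 ± 517, whereas *Pik3r1*, the regulatory subunit of PI3 kinase, fell by 0.93 and the protein kinase C gene *Prkca* by 1.20.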

How the data were processed

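RNA of sorted cells was amplified with SMART-Seq HT, which keeps no strand, and sequenced on a NextSeq500. Per the labels and methods, the authors trimmed reads with Trimmomatic 0.38, aligned them to GRCm38 with STAR 2.6.1d and counted exonic reads per gene with featureCounts 1.6.3, leaving out reads that fit several genes or places. The deposited values are read counts divided by DESeq2 1.18.1 size factors and rounded by the authors to whole numbers, and were handled as a score, since they are no longer counts. The planned fits were kept on the log scale, and count tests were not run.

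Values were tested as log2(normalized count + 1) with limma 3.58.1 in R 4.3.3, keeping genes whose mean was 10 or more, with one fit per cell type for the hemispheres and one fit of all 48 libraries for levels and differences of changes. A call needed an adjusted p (Benjamini-Hochberg over all genes) of at most 0.05, a 1.5-fold change and more than 10 in all 6 libraries of a group. The steps were tested on simulated data. The hemispheres of a replicate number were taken as the same pool. The main fits left the pool out, and the replicate block included it. The mean correlation of deviations for equal numbers was 0.21 in EC, 0.21 in PC, 0.37 in AC and 0.12 in MG, and for different numbers -0.04, -0.04, -0.07 and -0.02. Pools are the replicates.

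Named were all 9 members, per pathway list and cell type at most the 4 called genes with the smallest adjusted p, and the 3 genes most like each member. Members and lists were chosen with earlier results of these data known, so their counts are no independent support. Alternatives were other pseudocounts, filters, rescaling, the replicate block, left-out replicates, replicates 1 to 4, a joint fit and the cell types of the titles. Tables and figures used Python 3.11.15, numpy 2.4.6, pandas 2.3.3 and matplotlib 3.10.9.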

Additional observations from a re-analysis of the deposited data

Results flagged for a closer look

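Of 72 groups of 6 libraries checked for the 9 genes, 7 held a library far from the other 5 by Dixon's test on untransformed values. Each flagged value was the highest of its group. The limit gives about 1 in 20 groups by chance only for normally distributed values. Counts are skewed, so 7 of 72 cannot be read as more than chance. In ipsilateral pericytes, replicate 6 was high for *Flt1*, at 4481 normalized counts against 426 to 1404, and for *Flt4*, at 310 against 0 to 45. The endothelial markers of that library are given in the report. *Pgf* in ipsilateral endothelial cells was at 1850 in replicate 6 against 315 to 828, and in ipsilateral microglia at 149 in replicate 6 against 7 to 49. *Kdr* in ipsilateral microglia was at 246 in replicate 4 against 45 to 115. *Vegfc* in microglia was at 13 in contralateral replicate 6 against 0 to 1, and at 38 in ipsilateral replicate 4 against 0 to 7.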

How the results depend on the processing

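Of 572 recomputed values for members, 514 kept their direction and their side of the threshold, 46 reversed, 11 passed the threshold anew and 1 lost it. With the replicate block, 38 instead of 37 contrasts between cell types were called, and the calls over all genes went from 52 to 242 in astrocytes and from 139 to 226 in pericytes. The replicate block changed no stroke call of a member. No difference of changes was called under it.

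The joint fit of all libraries called 2 members in endothelial cells (*Pgf*, *Vegfa*), 1 in pericytes (*Nrp2*) and 1 in microglia (*Vegfa* in place of *Nrp2*). A pseudocount of 10 called 2 in microglia, and leaving out a replicate called 1 to 2 there, with *Vegfa* added without replicate 2. The cell types of the titles called 3 members in pericytes and 4 in microglia. This setting exchanges the ipsilateral libraries of pericytes and microglia. Each of its contrasts thus sets ipsilateral microglia of the columns against contralateral pericytes, or the reverse, and holds differences between cell types. Why the other settings differ was not tested.

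The values that reversed belong to results without a call, except *Nrp2* in microglia, which was -1.91 with the cell types of the titles. With those, the log2 differences in pericytes were 0.04 for *Vegfb*, -1.84 for *Vegfc*, -1.15 for *Flt1*, -0.41 for *Kdr* and -0.65 for *Flt4*, and *Kdr* in microglia was 0.82. In replicates 1 to 4, *Kdr* and *Flt4* were -0.05 and -0.10 in endothelial cells, *Flt4* was -0.07 in pericytes, and *Vegfb* and *Flt4* were -0.22 and -0.19 in microglia. Rescaled, *Vegfb* in pericytes was 0.05, *Pgf* and *Nrp1* in astrocytes were 0.02 and 0.01, and *Nrp1* in microglia was 0.02. With a pseudocount of 0.1, *Vegfc* in pericytes was -0.62.

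Leaving out 1 replicate gave ranges across 0 in endothelial cells for *Kdr* (-0.13 to 0.22), *Flt4* (-0.27 to 0.43) and *Nrp1* (-0.15 to 0.14). In pericytes these were *Vegfb* (-0.44 to 0.30), *Vegfc* (-0.60 to 1.41), *Flt4* (-0.29 to 1.04) and *Nrp1* (-0.07 to 0.35). In astrocytes they were *Pgf* (-0.15 to 0.13), *Flt1* (-0.08 to 0.36), *Kdr* (-0.19 to 0.44), *Flt4* (-0.18 to 0.27) and *Nrp1* (-0.23 to 0.04), and in microglia *Flt4* (-0.51 to 1.96) and *Nrp1* (-0.11 to 0.13). Values near the floor of 2.0 to 7.1 normalized counts, as for *Vegfc* and *Flt4* outside endothelial cells, are limited by depth.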
